A study of Homo sapiens with 17 samples.

Results

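*CRH*, *RRS1*, *COPS5* and *PPP1R42* lie on human chromosome 8, within the interval chr8:65772378-67191077 of GRCh38, and were examined together because their baited promoters and neighbours had more listed promoter contacts in naive than in primed pluripotent stem cells (PSCs). Promoter Capture Hi-C (PCHi-C) records which restriction fragments are ligated to baited promoter fragments, and its contact lists chose the interval. The counts, scores and reads of those contacts are therefore given as a description without a test. Of 120 listed *Hin*dIII fragments in the interval, 16 were baited, and 5 of the baits held a transcript start of a member gene or the 1 kb upstream of one. These 5 baits and their partners made 64 of the 88413 fragments in either list, and the other 56 fragments of the interval had no contact with a member bait. No listed contact left the interval in either state.

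Naive PSCs were grown in medium with PD0325901, CHIR99021, LIF and the PKC inhibitor Go6983 on Matrigel, and primed PSCs in TeSR-E8 on Vitronectin. Both came from 1 human embryonic stem cell line, H9 NK2, so that differences between states are those of a single genetic background and its culture media. PCHi-C was deposited as 1 list per state that combined 2 replicates, Hi-C as 1 library per state, and H3K4me1 CUT&RUN as 2 naive and 3 primed libraries. H3K4me1 was the measurement that did not take part in choosing the interval and that had replicates, so it alone was tested between states.

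Promoters reach distal regulatory elements by looping of the DNA between them, and contacts change when cells move between developmental states. Monomethylation of lysine 4 of histone H3 (H3K4me1) marks enhancers, poised and active, and the flanks of active promoters. *CRH* encodes corticotropin-releasing hormone, the hypothalamic peptide that starts the endocrine stress response. *RRS1* encodes a ribosome biogenesis factor that works with RPF2 in building the large ribosomal subunit. *COPS5* encodes the catalytic subunit of the COP9 signalosome, which removes NEDD8 from cullin ubiquitin ligases, and *PPP1R42* is annotated as a regulatory subunit of protein phosphatase 1. *COPS5* and *PPP1R42* are read towards lower coordinates from neighbouring starts, at 67083783 and 67056604, and the *CSPP1* gene, which encodes a centrosome and spindle pole protein, starts between them on the opposite strand at 67062417.

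The 5 member baits together had 67 listed contacts in naive and 36 in primed PSCs, of which 22 were the same pair of fragments in both. The shared contacts were 32.8% of the naive and 61.1% of the primed contacts, and 68.7% and 88.9% where both ends had only to lie within 10 kb of those of a contact in the other state. Over all chromosomes the lists went the other way, with 79139 contacts within chromosomes in naive and 88712 in primed PSCs. The excess was not spread evenly over the members. The 3 *COPS5* baits together had 31 contacts in naive and 6 in primed PSCs, whereas *CRH* had 18 and 13, and *RRS1* had 18 in each state. A contact was listed when its CHiCAGO score, which sets its reads against those that chance ligation would give at that distance, reached 5. The weakest contacts of the member baits that were listed stood at a score of 5.06 in naive and 5.15 in primed PSCs, and the number of contacts with a score of at least 10 was 13 in naive and 12 in primed PSCs.

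**Figure D1:**
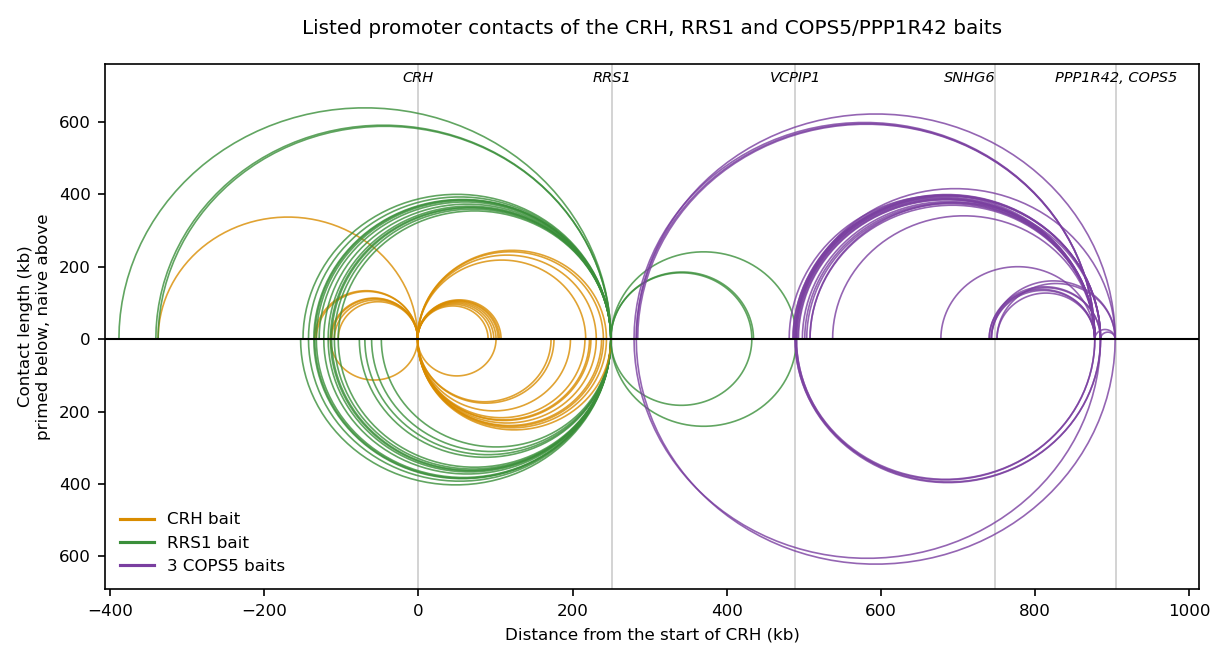
Each arc joins a member bait to a listed partner, with position in kb from the start of *CRH* on the horizontal axis and contact length in kb on the vertical axis, naive above and primed below the line. The *COPS5* arcs are 31 above and 6 below, and the *RRS1* arcs are 18 above. Below the line, the 1 primed contact of *CRH* with *RRS1* is drawn among the *CRH* arcs and not again for *RRS1*. The *CRH* arcs change in length between states.

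The *CRH* bait (chr8:66175485-66179373) covers the whole *CRH* gene, and it had 5 contacts with the same fragment in both states, 13 in naive only and 8 in primed only. Its median contact length was 110 kb in naive and 223 kb in primed PSCs. Towards higher coordinates, 7 naive and 1 primed contacts ended within 150 kb, and 4 naive and 11 primed contacts ended beyond. Towards lower coordinates, *CRH* had 7 contacts in naive and 1 in primed PSCs. The best-scored naive partner, chr8:66277428-66280804, lay 102 kb above the bait in a stretch without a coding gene, with a score of 12.29 from 66 reads in naive and 5.15 from 40 reads in primed PSCs. The best-scored primed partner, chr8:66419949-66424712, borders the *RRS1* bait and had a score of 12.86 from 38 reads in primed and 6.74 from 20 reads in naive PSCs. The contact between the *CRH* and *RRS1* baits themselves was listed in primed PSCs alone, with 31 reads and a score of 5.87. In naive PSCs *CRH* also contacted the bait of *PDE7A*, a cAMP phosphodiesterase gene, with 23 reads and a score of 5.16.

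The *RRS1* bait (chr8:66424713-66431390), which also holds the start of the divergent transcript *RRS1-DT*, had 12 of its 18 contacts of each state in common. Its partners lay far away, at a median of 375 kb in naive and 360 kb in primed PSCs, and 15 naive and 16 primed contacts pointed towards lower coordinates. In both states the best-scored partner was chr8:66044464-66047536 within *DNAJC5B*, a gene for a DnaJ-type co-chaperone, with a score of 14.24 from 25 reads in naive and 14.46 from 34 reads in primed PSCs. Reads were higher in primed PSCs for 12 of the 12 common contacts, with a median of 18 reads in naive and 28 in primed PSCs. The read numbers are those combined from 2 replicates by the authors, with no spread given. They are not scaled for depth or capture efficiency between states, so their difference is not read as a difference in contact strength. The *RRS1* bait reached the *PDE7A* bait and the bait of *MYBL1*, a MYB-family transcription factor gene, in naive PSCs, and the baits of *CRH* and of the non-coding gene ENSG00000253190 in primed PSCs. Its contact with a bait of *VCPIP1*, which encodes a deubiquitinase, was listed in both states.

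*CRH* and *RRS1* shared partners within the *DNAJC5B* gene. In naive PSCs 6 unbaited fragments contacted both baits, which is 35.3% of the 17 unbaited *CRH* partners and 40.0% of the 15 unbaited *RRS1* partners. In primed PSCs 1 fragment did, chr8:66063086-66065581, which is 8.33% of 12 and 6.67% of 15. This fragment contacted both baits in both states, *CRH* with 56 naive and 48 primed reads, and *RRS1* with 22 naive and 29 primed reads. No unbaited fragment was shared between *COPS5* and either of the other genes in either state.

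The start of *PPP1R42* and a transcript start of *COPS5* share a bait, chr8:67051184-67060454, and it had 19 contacts in naive and 2 in primed PSCs. The next bait, chr8:67060455-67065929, holds the *CSPP1* start and a further *COPS5* transcript start, with 8 naive and 3 primed contacts. The third, chr8:67079535-67084839, holds the *COPS5* gene start, with 6 naive and 1 primed contacts, and all of these joined it to other baits. The best-scored naive partner of each of the 3 baits was the bait of *SNORD87* (chr8:66919646-66923601), a small nucleolar RNA gene inside the host transcript *SNHG6*. These contacts had 113, 91 and 45 reads with scores of 14.57, 11.65 and 27.02, and none was listed in primed PSCs. In all, the *COPS5* baits had 5 contacts with the *SNORD87* and *SNHG6* baits in naive and 0 in primed PSCs. The contacts of *COPS5* with the 2 *VCPIP1* baits were mostly kept, with 5 in naive and 4 in primed PSCs, all 4 of them common to both. Of these, the pair of the *COPS5*/*PPP1R42* bait with the bait at chr8:66667601-66669893 had 29 reads in naive and 34 in primed PSCs, with scores of 11.77 and 10.3. The 3 *COPS5* baits lie close together and share partners, so their counts are not independent.

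Among the other baits of the interval, the *SNORD87* bait had the largest difference, with 37 contacts in naive and 2 in primed PSCs. The bait of *PDE7A* had 10 and 0, that of *DNAJC5B* 7 and 0, and that of *SNHG6* 5 and 0. A bait in an intron of *ADHFE1*, which encodes an iron-dependent alcohol dehydrogenase, at the start of a transcript of ENSG00000285791, had 31 and 11, and *MYBL1* had 15 and 8. The bait of *MCMDC2*, a gene of meiotic recombination, had 1 naive contact, and the 2 *VCPIP1* baits, which also hold starts of *C8orf44-SGK3*, had 5 and 3, and 6 and 5. The baits of *TRIM55*, a muscle RING finger gene, and of the non-coding gene ENSG00000253190 went the other way, with 1 and 5, and 2 and 4. Over all baits of the interval there were 160 naive and 62 primed contacts, joined into 1 connected network in each state, of 111 fragments in naive and 50 in primed PSCs. Among all 5883 baits with at least 10 contacts in the 2 lists together, 17.1% had at least 2 times as many in naive as in primed PSCs, against 2 of 4 member baits and 3 of 5 other baits of the interval that reached 10 contacts. The interval was chosen on this contrast, so nothing is read from that difference.

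**Figure D2:**
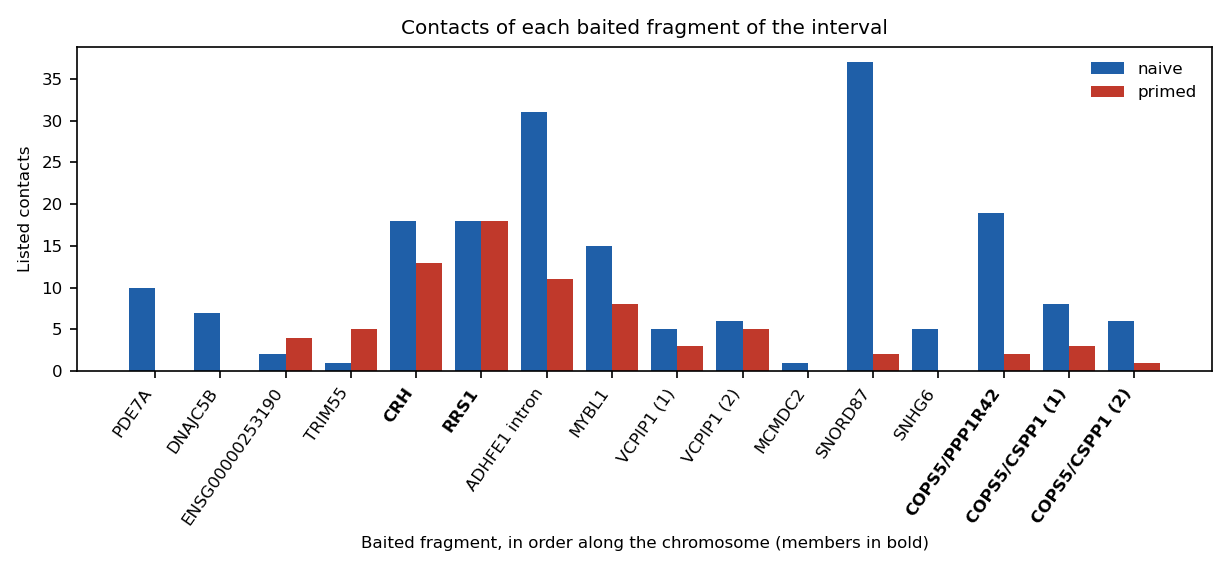
Bars give the number of listed contacts of each of the 16 baited fragments of the interval in naive (blue) and primed (red) PSCs, in chromosome order, with the 5 member baits in bold. The bars of *RRS1* are equal at 18, and the largest difference is that of the *SNORD87* bait, with 37 and 2.

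Hi-C, which measures all contacts without promoter capture, did not take part in choosing the interval, but there was 1 library per state and 100 kb bins, so it is given without a test. The study's methods describe promoter capture from Hi-C library DNA, so the Hi-C and PCHi-C counts may share source material. Ratios are naive over primed counts, scaled by the contacts between adjacent bins on all chromosomes, and their exact 95% intervals cover counting error only. Adjacent bins of the interval summed to 5405 naive and 6358 primed contacts, a ratio of 0.995 (95% interval 0.960 to 1.03), and the median over adjacent bins of chromosome 8 was 0.995 and over all chromosomes 1.01. The bins that hold the *CRH* and *RRS1* starts, 300 kb apart, had 133 naive and 242 primed contacts, a ratio of 0.643 (0.517 to 0.798), beside a median of 0.984 over all bin pairs at that distance. The same pair of bins held 3 naive and 11 primed PCHi-C contacts of the member baits. From the *CRH* bin to the bin 200 kb above, Hi-C counts were 302 and 461, a ratio of 0.767 (0.661 to 0.889), and PCHi-C contacts of the members were 1 and 4. With the bin 400 kb above, the ratio was 0.690 (0.501 to 0.943), with 0 such contacts in either state. Towards lower coordinates the *CRH* bin had ratios on both sides of 1. With the adjacent *DNAJC5B* bin the ratio was 1.14 (1.01 to 1.28), and the members had 6 naive and 1 primed PCHi-C contacts. With the bin 200 kb below, Hi-C counts were 74 and 115, a ratio of 0.753 whose interval included 1. PCHi-C listed 0 contacts of the members there in either state. With the *PDE7A* bin 300 kb below, the ratio was 1.38 (1.01 to 1.88), with 1 and 0 PCHi-C contacts. With the bin 400 kb below it was 1.45 (1.09 to 1.92), with 0 PCHi-C contacts of the members in either state. The *RRS1* bin had a ratio of 1.17 (1.00 to 1.38) with the *MYBL1* and *VCPIP1* bin 200 kb above, where the members had 3 and 2.

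The bin that holds *COPS5* and *PPP1R42* had no Hi-C ratio above 1 whose interval left out 1. With the adjacent bin below, which holds the *SNORD87* and *SNHG6* baits, it had 437 naive and 469 primed Hi-C contacts, a ratio of 1.09 (0.955 to 1.25), where the members had 7 naive and 0 primed PCHi-C contacts. With the bins 200 and 300 kb below, the Hi-C ratios were 0.669 (0.554 to 0.807) and 0.587 (0.476 to 0.722), from 179 and 313, and 141 and 281 contacts. In each of these bin pairs the members had 1 naive and 0 primed PCHi-C contacts. With the bin of *VCPIP1* 400 kb below, the counts were 171 and 230, a ratio of 0.870 (0.710 to 1.07), where PCHi-C listed 16 naive and 4 primed contacts of the members. The *RRS1* bin and the *DNAJC5B* bin, 400 kb apart, had 194 and 224 Hi-C contacts, a ratio of 1.01 (0.832 to 1.23), beside 12 naive and 11 primed PCHi-C contacts. A 100 kb bin holds many fragments besides the baits, and the naive file leaves out some low-count pairs, so only pairs up to 400 kb were used. The pairs of the interval up to that distance were all in both files, but over all chromosomes the naive file listed 96.7% of the primed pairs at 300 kb and 92.0% at 400 kb, which bears on the medians beside them.

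**Figure D3:**
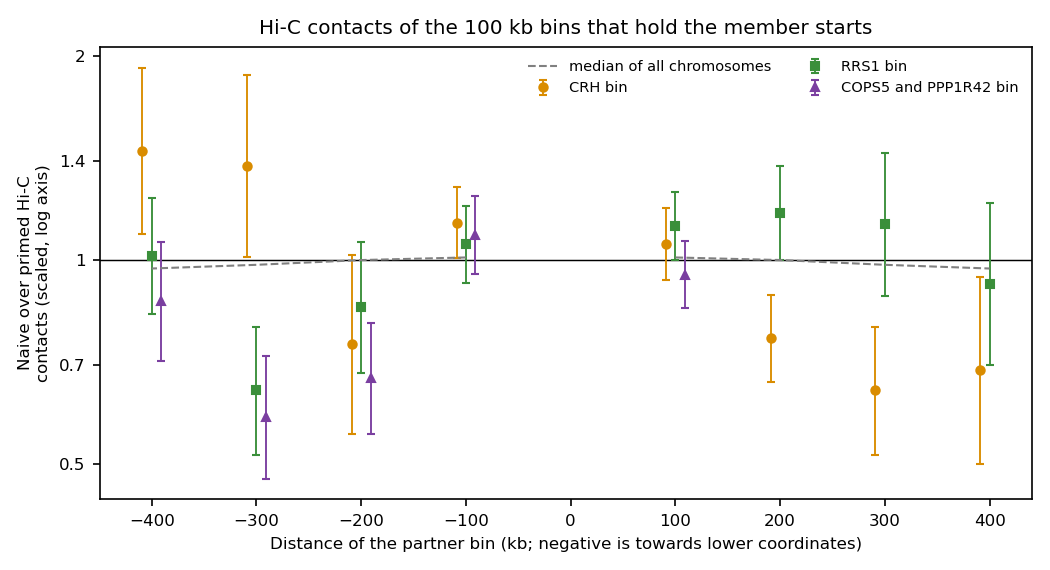
Points give the naive over primed ratio of scaled Hi-C contacts (log axis) between the 100 kb bin that holds each member start and bins up to 400 kb away, with bars for the 95% counting interval, and the dashed line is the median over all chromosomes. The *CRH* to *RRS1* bin pair (0.643), which appears once for each gene, and the *COPS5* bin with the bin 300 kb below (0.587) are the lowest points.

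H3K4me1 was compared over 500 bp tiles and over the fragments, as log2 RPM, which scales the reads of a tile to the library's total, with limma and Benjamini-Hochberg adjustment over all features tested on all chromosomes. The cultures were checked by tiles around marker genes. Of 8 naive genes, 7 had more tiles higher in naive than in primed PSCs (all but *TBX3*), and of 6 primed genes, 5 had more tiles higher in primed PSCs (all but *CD24*). The libraries held 6.74 M to 26.6 M reads. Primed replicate 1 had 224 tiles of the interval above a log2 RPM of 0, near the 210 and 203 of the naive libraries, and the other primed replicates had 109 and 116. The study's methods call the CUT&RUN libraries biological replicates, and the labels do not say whether they came from separate cultures, so p-values measure the spread between these libraries.

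H3K4me1 was counted over the interval and over stretches between the member starts. Of 2839 tiles, 258 exceeded a log2 RPM of 0 in 2 or more libraries and were tested. Of these 78 (30.2%) were higher in naive and 55 (21.3%) higher in primed PSCs at an adjusted p under 0.05, beside 26.1% and 25.9% of all tiles tested. A tile can pass this filter through the state in which it is high, so the counts were also made with every tile. Without the filter, 195 tiles (6.87%) were higher in naive and 66 (2.32%) higher in primed PSCs, beside 4.19% and 3.78% of all tiles. The median difference of the tested tiles was 0.33 log2 RPM towards naive, and 0.08 over all tiles tested. Without the filter, limma called 0 tiles of the interval in either direction without naive replicate 1, naive replicate 2 or primed replicate 3, and over all chromosomes these fits called 0, 0 and 5 of 6176584 tiles. At an unadjusted p under 0.05 they gave 417, 284 and 319 tiles of the interval higher in naive and 63, 314 and 133 higher in primed PSCs, beside 433 and 167 with all libraries. With the filter, the count higher in naive was 0 without naive replicate 1 or naive replicate 2 (4 and 3 at an unadjusted p under 0.05), because a naive-only tile then cannot reach 2 libraries, and the count higher in primed was 29 without primed replicate 1, 32 without primed replicate 3 and 34 without naive replicate 2.

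From the start of *PPP1R42* to that of *COPS5*, 27.2 kb that hold the *CSPP1* start, 22 of all 55 tiles were higher in naive and 0 higher in primed PSCs by limma without the filter. With it the counts were 18 and 0 of 27 (19 and 0 at an unadjusted p under 0.05), but most of the 27 passed through the naive libraries, with 29 and 24 tiles above a log2 RPM of 0 in these and 6, 2 and 0 in the primed ones. Mean log2 RPM there was -0.21 and -0.63 in the naive libraries and -2.14, -2.11 and -2.40 in the primed ones. All 55 tiles of this stretch entered these means, and the naive libraries were higher than every primed library. From the *COPS5* start to the end of the interval, 35 of all 214 tiles were higher in naive and 0 higher in primed PSCs without the filter, and 5 and 0 of 11 with it (6 and 0 at an unadjusted p under 0.05). Between the *CRH* and *RRS1* starts, 15 of all 501 tiles were higher in naive and 23 higher in primed PSCs without the filter, and 6 and 15 of 33 with it. Below *CRH* the counts were 45 and 28 of 812 without the filter and 30 and 23 of 91 with it, and between *RRS1* and *PPP1R42* 78 and 15 of 1255 and 19 and 17 of 96. Over all chromosomes the shares were 4.19% and 3.78% without the filter and 26.1% and 25.9% with it. Nothing is read from counts near these shares. Within the *PDE7A* gene, at the lower end, 24 of all 140 tiles were higher in primed and 2 higher in naive PSCs without the filter, and 20 and 3 of 45 with it.

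Around the starts themselves the members differed. Within 5 kb of the *COPS5* start, 13 of all 20 tiles were higher in naive and 0 higher in primed PSCs without the filter (limma). The 9 tiles that passed the filter did so through the naive libraries, since no tile of this window was above a log2 RPM of 0 in a primed library, so their own count carries no information. Mean log2 RPM over this window was -0.24 and -0.66 in naive and -3.08, -3.01 and -3.28 in primed libraries, and the groups did not overlap. In primed replicates 1 and 2 these means lay near the value of a tile without reads, -3.30 and -3.13. Within 5 kb of the *CRH* start 0 of 3 tested tiles passed the threshold in either direction, and of the *RRS1* start 0 of 6, and of the *PPP1R42* start 0 of 4. At an unadjusted p under 0.05 limma gave 0 of 3, 0 of 6 and 1 of 4. Over all 20 tiles of each window without the filter, 1 was higher in primed PSCs at *CRH*, 0 passed at *RRS1* and 2 were higher in naive PSCs at *PPP1R42*. At *CRH* the window means were -2.85 and -2.47 in naive and -2.17, -1.93 and -2.26 in primed libraries, and at *RRS1* -1.13 and -1.34 in naive and -1.15, -1.50 and -1.21 in primed libraries. The libraries of the 2 states overlapped at *RRS1* and not at *CRH*.

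**Figure D4:**
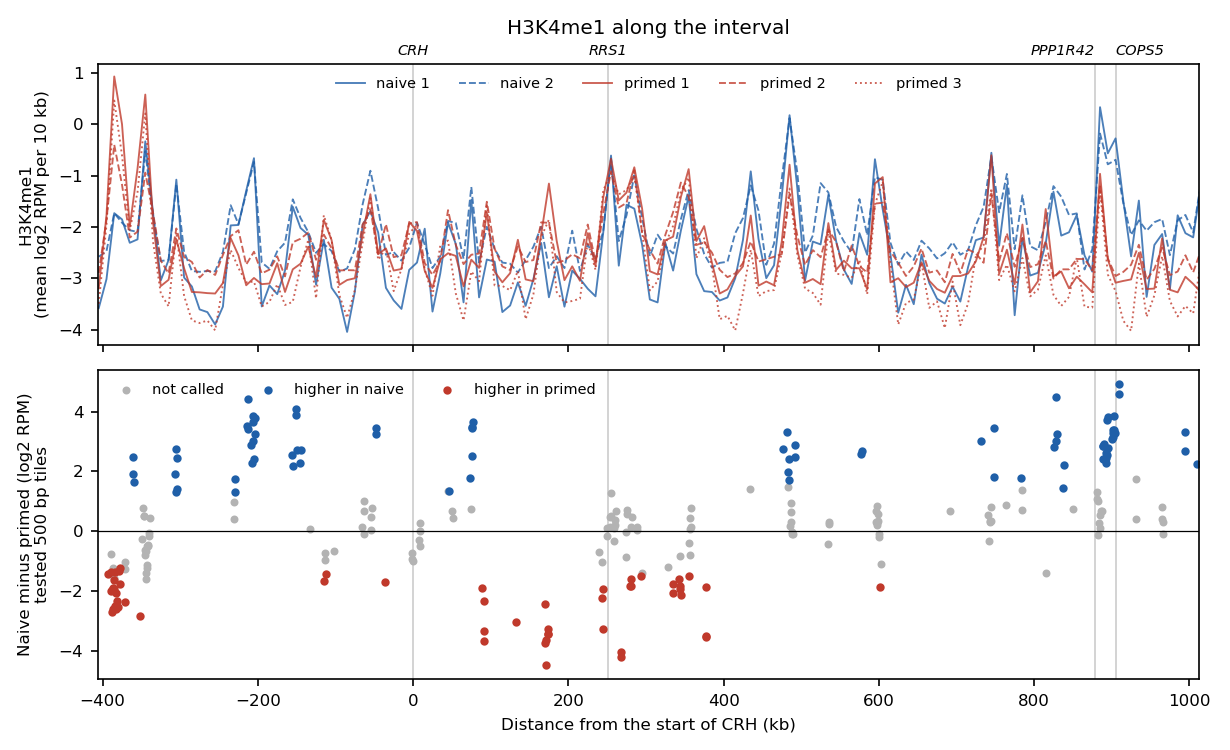
The upper panel gives the mean log2 RPM of H3K4me1 per 10 kb in each of the 5 libraries, and the lower panel the naive minus primed difference of each tested 500 bp tile, against distance from the start of *CRH* in kb, with the 4 member starts as vertical lines. Tiles higher in naive PSCs (blue, 78) crowd at *COPS5* and below *CRH*, and tiles higher in primed PSCs (red, 55) at the lower end of the interval and from *CRH* to above *RRS1*.

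The 5 called tiles with the largest differences in each direction are given here. The largest towards naive was chr8:67087501-67088000 in an intron of *CSPP1*, 909 kb above the *CRH* start, with a log2 RPM of 1.66 and 0.95 in the naive and -3.15, -2.98 and -4.73 in the primed libraries. The difference was 4.92 ± 0.61 (SE), with a limma adjusted p of 0.000103. The tile after it, chr8:67088001-67088500, differed by 4.58, and a tile in an intron of *PPP1R42*, chr8:67006001-67006500, by 4.49. The other naive tiles among the 5 largest were chr8:65965001-65965500, outside any coding gene at -213 kb from the *CRH* start, with 4.43, and chr8:66028001-66028500 in an intron of *DNAJC5B*, with 4.07.

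Towards primed the largest was chr8:66349001-66349500, outside any coding gene 171 kb above the *CRH* start, with a log2 RPM of -4.45 and -2.91 in the naive and 1.61, 0.34 and 0.44 in the primed libraries. It differed by -4.47 ± 0.67 (SE), with a limma adjusted p of 0.000166. The neighbouring tile chr8:66348501-66349000 differed by -3.74, and 2 adjoining tiles in an intron of *ADHFE1*, chr8:66445501-66446000 and chr8:66446001-66446500, by -4.02 and -4.21. The last, chr8:66269501-66270000, 91.3 kb above *CRH*, differed by -3.68. An empty tile stands at 0.9 reads in these data, so differences that rest on empty tiles depend on the depth of the empty library. Naive replicate 2 was empty at all 5 of the primed-high tiles. Among the naive-high tiles, primed replicate 2 was empty at chr8:67088001-67088500, and primed replicates 2 and 3 at chr8:67006001-67006500. Primed replicates 1 and 2 were empty at chr8:65965001-65965500.

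None of the 5 member baits passed the filter, so their values come from the fit without the filter. The bait of the *COPS5* gene start stood at -0.15 and -0.65 in the naive and at -2.96, -2.94 and -2.97 in the primed libraries. The difference was 2.56 ± 0.36 log2 RPM (SE), with a limma adjusted p of 8.18e-08, and it passed the threshold without each library in turn. The *COPS5*/*CSPP1* bait stood at 0.10 and -0.41 in naive and -0.37, -0.70 and -1.06 in primed libraries, which overlap, and its difference of 0.55 ± 0.37 did not pass (limma adjusted p = 0.322). The *COPS5*/*PPP1R42* bait was low in both states, and its difference was 0.79 ± 0.38 (limma adjusted p = 0.132). The *CRH* bait stood at -1.58 and -2.39 in naive and -0.84, -1.14 and -1.27 in primed libraries, without overlap, and its difference of -0.90 ± 0.36 did not pass (limma adjusted p = 0.0606), though it did without primed replicate 2 (0.0451). The *RRS1* bait differed by -0.08 ± 0.36 (limma adjusted p = 0.938), and its sign turned without naive replicate 2 or primed replicate 3.

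Of the 64 fragments of the member baits and their partners, 10 passed the filter, and 1 of these was higher in naive and 5 higher in primed PSCs, beside 32.9% and 21.5% of all fragments tested. With every fragment in the fit, 8 of 64 (12.5%) were higher in naive and 6 (9.38%) higher in primed PSCs, beside 15.2% and 9.81% of all fragments, so their shares were near those of all fragments. In the whole interval 24 of 120 (20.0%) were higher in naive and 11 (9.17%) higher in primed PSCs. The fragments of the interval that passed the filter and differed most, but did not contact a member bait, were chr8:67086542-67087582 in *CSPP1*, at 4.04, and chr8:67172736-67173281, at 3.01, towards naive, and chr8:66445216-66445510 in *ADHFE1*, at -3.76, and chr8:65791762-65792836 in *PDE7A*, at -1.79, towards primed PSCs. The median difference was 0.22 over the 64 fragments, 0.35 over the 120 and 0.06 over all listed fragments. The 14 called fragments of the members had no overlap of libraries between states. The same held for 24 of 24 and 11 of 11 called fragments of the interval, so nothing is read from it. Not all 14 called fragments of the members passed without each library in turn. The fragments called higher in primed PSCs fell to 3 without naive replicate 1 in the unfiltered fit, and with the filter to 0 without primed replicate 1, 1 without primed replicate 3 and 2 without either naive replicate.

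H3K4me1 at the partners was also counted by the state in which they were contacted, in the unfiltered fit, in which 15.2% of all fragments were higher in naive and 9.81% higher in primed PSCs. Of 23 unbaited partners of the members that any bait contacted in naive PSCs alone, 4 were higher in naive and 2 higher in primed PSCs. Of 9 that any bait contacted in primed PSCs alone, 1 was higher in each state, and of 19 contacted in both, 2 were higher in naive and 3 higher in primed PSCs, and nothing is read from counts this close to those shares. The median difference was 0.40 log2 RPM for the naive-only, -0.14 for the primed-only and -0.45 for the 19 common partners, beside 0.17, -0.08 and 0.05 over all such fragments in the lists.

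For *CRH*, a primed-only partner and a naive-only partner were both higher in primed PSCs. The primed-only partner chr8:66348964-66352020, 172 kb above the *CRH* start, stood at -2.99 and -2.85 in naive and 0.79, -0.57 and 0.17 in primed libraries, a difference of -3.05 ± 0.37 (limma adjusted p = 2.77e-09). The naive-only partner chr8:66267123-66270537, 90.4 kb above, stood at -2.38 and -2.26 in naive and 0.00, -0.29 and 0.08 in primed libraries, a difference of -2.25 ± 0.36 (limma adjusted p = 1.29e-06). In neither did the libraries of the states overlap, and in the filtered fit their limma adjusted p was 0.000351 and 0.000337. The best-scored primed partner, beside the *RRS1* bait, was also higher in primed PSCs, by -1.38 ± 0.36 (limma adjusted p = 0.00239), but did not pass without naive replicate 1 (0.0832).

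For *RRS1*, the naive-only partner chr8:66027774-66029601 in an intron of *DNAJC5B* stood at 0.07 and 0.38 in naive and -2.86, -2.44 and -3.10 in primed libraries, a difference of 3.03 ± 0.36 (limma adjusted p = 1.40e-09). Its limma adjusted p in the filtered fit was 0.000124. The next fragment, chr8:66023386-66027773, was contacted by *RRS1* in primed PSCs alone, and by the *PDE7A* bait in naive PSCs, and was also higher in naive PSCs, by 1.22 ± 0.39 (limma adjusted p = 0.0152), a call lost without naive replicate 1 (0.0903), naive replicate 2 (0.0893) or primed replicate 3 (0.168). A primed-only partner in an intron of *TRIM55*, chr8:66129336-66131225, was higher in naive PSCs by 2.07 ± 0.36 (limma adjusted p = 6.04e-06). The fragment that both *CRH* and *RRS1* contacted in both states, chr8:66063086-66065581, stood at -0.97 and -1.32 in naive and 0.29, -0.63 and -0.39 in primed libraries, and its difference of -0.90 ± 0.37 did not pass (limma adjusted p = 0.0671). Close by, chr8:66065711-66065928, which *RRS1* contacted in both states and *CRH* in naive PSCs alone, was higher in primed PSCs by -1.44 ± 0.36 (limma adjusted p = 0.00166). It overlaps 1 tile. A partner of *RRS1* in both states, chr8:66610109-66611694 in an intron of *MYBL1*, was higher in naive PSCs by 1.62 ± 0.37 (limma adjusted p = 0.00049). The naive-only partner chr8:65788115-65791761 in *PDE7A*, at -389 kb from the *CRH* start, was higher in primed PSCs by -1.70 ± 0.38 (limma adjusted p = 0.00034). In the filtered fit its limma adjusted p was 0.00647.

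For the *COPS5*/*PPP1R42* bait, 3 naive-only partners around *VCPIP1* were higher in naive PSCs. The partner in an intron of *VCPIP1*, chr8:66655303-66663365, stood at -0.58 and -0.05 in naive and -2.46, -2.58 and -2.37 in primed libraries, a difference of 2.16 ± 0.36 (limma adjusted p = 2.99e-06). The other 2, chr8:66669894-66670865 and chr8:66670967-66671820 in an intron of *C8orf44-SGK3*, differed by 2.49 ± 0.37 and 2.17 ± 0.37. The remaining naive-only partners of this bait around *VCPIP1* and *C8orf44-SGK3* did not pass. Their differences ran from -0.12 ± 0.43 (chr8:66681388-66682802, limma adjusted p = 0.924) to 0.84 ± 0.39 (chr8:66675237-66677662, limma adjusted p = 0.115). Over all fragments 15.2% were higher in naive PSCs in this unfiltered fit. A partner in *ADHFE1*, chr8:66456369-66459856, was contacted by the *COPS5*/*PPP1R42* bait in naive and by the *COPS5*/*CSPP1* bait in primed PSCs. It was higher in primed PSCs by -1.23 ± 0.37 (limma adjusted p = 0.00904), a call lost without naive replicate 1 (0.15) or naive replicate 2 (0.103). In the filtered fit the limma adjusted p of the *ADHFE1* partner was 0.0183. The *SNORD87* bait, the best-scored naive partner of the *COPS5* baits, stood at -0.16 and -0.26 in naive and 0.22, -1.26 and -0.79 in primed libraries, which overlap, and its difference of 0.40 ± 0.38 did not pass (limma adjusted p = 0.553).

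**Figure D5:**
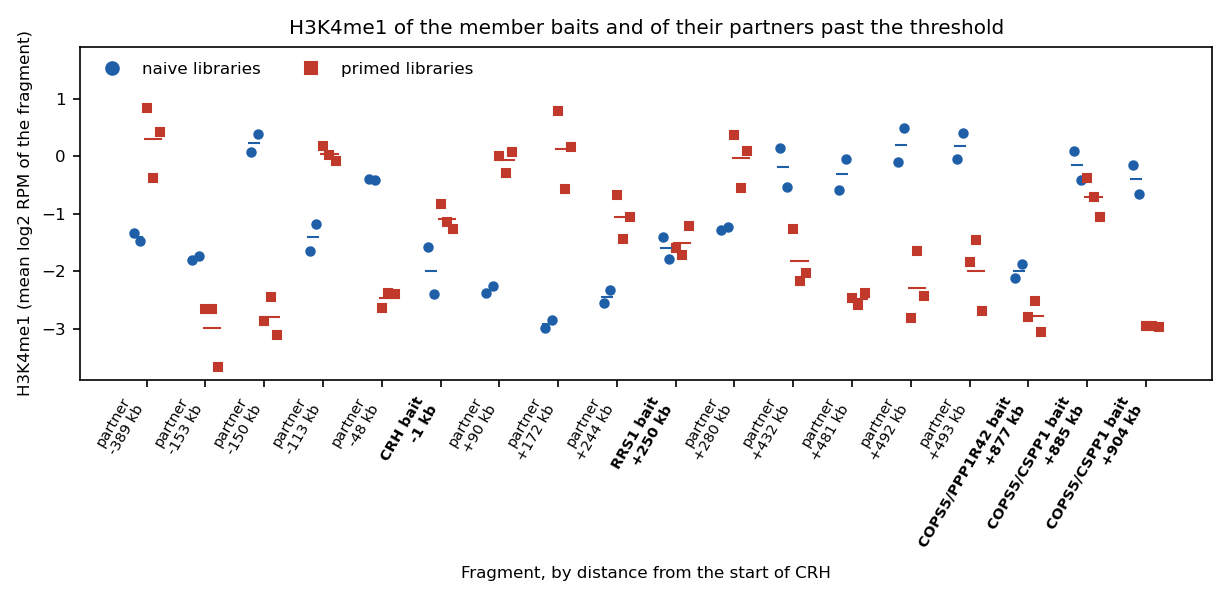
Points give the mean log2 RPM of H3K4me1 of each fragment in the 2 naive (blue circles) and 3 primed (red squares) libraries, with a line at each state's mean, for the 5 member baits (bold) and the 13 partners that passed the threshold without the filter, in chromosome order by distance from the start of *CRH*. The bait of the *COPS5* gene start, at the right, shows primed libraries at -2.94 to -2.97 and naive libraries at -0.15 and -0.65.

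The other genes of the members' pathways were taken from lists chosen by function. Of the 9 COP9 signalosome genes besides *COPS5*, 8 had a listed bait, and 1 had more contacts in naive, 6 more in primed PSCs and 1 the same number, with 21 naive and 35 primed contacts in all. Among the 9 baits of these genes, 6 were higher for H3K4me1 in naive and 1 (*COPS9*) higher in primed PSCs in the unfiltered fit, beside 15.2% and 9.81% of all fragments, with a median difference of 0.98 log2 RPM. Most of all fragments are unbaited, and the share over baits alone was not computed, so nothing is read from this difference. The bait of *COPS4* differed by 1.47 ± 0.36 (limma adjusted p = 0.00119) and had 4 naive and 6 primed contacts. Of the 7 genes listed with *CRH* (*CRHR1*, *CRHR2*, *CRHBP*, *UCN*, *UCN2*, *UCN3* and *POMC*), 6 had a bait, with 31 naive and 35 primed contacts. *POMC*, which encodes the precursor of ACTH, had 8 naive and 1 primed contacts and a bait higher in naive PSCs by 1.08 ± 0.36 (limma adjusted p = 0.0194), and *UCN3*, a urocortin gene, had 4 and 20 contacts.

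Of the 7 other genes of large subunit assembly, 4 had a bait, with 54 naive and 64 primed contacts. *RPF2*, the partner of *RRS1*, had 15 and 13 contacts and a bait higher in naive PSCs by 1.17 ± 0.37 (limma adjusted p = 0.0116), and 3 of 7 baits of this list were higher in naive and 0 higher in primed PSCs (5 and 0 at an unadjusted p under 0.05), beside the same 15.2% and 9.81% of all fragments. Baits are again set beside mostly unbaited fragments here, so nothing is read from these counts. The 3 catalytic subunit genes of protein phosphatase 1 had 21 naive and 8 primed contacts, of which *PPP1CB* had 15 and 3, and 0 of their 4 baits passed the threshold for H3K4me1 with limma, against 1 of 4 at an unadjusted p under 0.05.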

How the data were processed

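For PCHi-C, the authors mapped read pairs with HiCUP to GRCh38, combined 2 replicates per state in CHiCAGO, and deposited contacts with their combined read number and a score of at least 5. For Hi-C, the authors deposited raw counts of di-tags per pair of 100 kb bins. For H3K4me1 CUT&RUN, the submitters' processing notes name Trim Galore 0.5.0 and Bowtie2 2.3.2, and the authors deposited log2 RPM per 500 bp tile, made in SeqMonk. An empty tile stands at 0.9 reads there, so its log2 value falls with depth.

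The lists hold no gene names, so baits were named by GENCODE 44 transcript starts and 1000 bp upstream. All 4263 listed fragments of chromosome 8 had *Hin*dIII ends of GRCh38. A contact between baits, listed from either end, was counted once with its higher score. Fragments took the mean of their tiles. limma 3.58.1 (R 4.3.3; lmFit, eBayes with trend) compared 2 naive with 3 primed libraries over 465156 tiles and 7781 fragments that exceeded a log2 RPM of 0 in 2 or more libraries, two-sided, threshold 0.05, and over all tiles and fragments. Reads recovered from log2 RPM were whole (within 0.01) for 100% of low values, and edgeR 4.0.16 tested them as an alternative. Scripts were tested on simulated data. Figures used matplotlib 3.10.9.

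Named genes and regions were drawn from the members, all baits of the interval, the 5 best-scored contacts per member bait and state, the 5 called tiles (without overlap between states) and fragments with the largest differences in each direction, and the lists. Fragments called without the filter and the *CRH*, *RRS1* shared fragment were added after their values were seen. The members, interval and lists were chosen with earlier results of these data known. NANOG, SOX2 and input libraries were not analysed here.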

Additional observations from a re-analysis of the deposited data

How the results depend on the processing

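The contact lists have no replicate spread. At scores of at least 7 and 10, the member baits had 36 and 13 naive and 19 and 12 primed contacts, and the interval 75 and 31 naive and 28 and 17 primed contacts. The least number of reads, equal list lengths and, chosen after seeing the data, baits by the gene's own start changed no count by over 1.5 times. With both ends allowed to lie within 10 kb, 68.7% of naive and 88.9% of primed contacts of the members were common. Scaled by contacts between chromosomes, the Hi-C ratio of adjacent bins was 0.928 instead of 0.995, and the Hi-C ratios of the member bins stayed within their intervals. Those of 1.14, 1.38 and 1.17, with lower limits of 1.01, 1.01 and 1.00, became 1.06, 1.28 and 1.09. The change of scaling multiplies a ratio and its limits by the same factor. The lower limits of these ratios therefore fall below 1 under it, and their intervals no longer leave out 1.

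For tiles higher in naive PSCs, the count was 195 with no filter, 2 where the mean log2 RPM over libraries had to be above 0, and 0 to 87 without each replicate. For tiles higher in primed PSCs it was 15 under the mean filter and 29 to 64 without each replicate. Without the filter, leaving out each replicate gave 0 to 226 and 0 to 92 tiles. Fragments of the interval higher in naive PSCs numbered 24 with no filter, 0 under the mean filter and 0 to 3 without each replicate, and those higher in primed PSCs 0 and 0 to 7. Fragments of the members higher in naive PSCs numbered 8, 0 and 0 to 1, and those higher in primed PSCs 0 and 0 to 4. Without the filter, leaving out each replicate gave 7 to 14 fragments of the interval and 3 to 8 of the members higher in primed PSCs. Only 86 tiles and 3 fragments passed the mean filter, and without a naive replicate a naive-only feature cannot reach 2 libraries. Otherwise the cause was not tested.

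Same-numbered libraries deviated together only weakly (r of 0.035 and 0.031). The deviations of the 2 naive libraries mirror each other, so this cannot decide whether the numbers pair the libraries. With the replicate block, 68 tiles of the interval were higher in naive and 40 higher in primed PSCs, and the fragment at chr8:66456369-66459856 lost its call (difference -1.16, limma adjusted p = 0.0727). edgeR on recovered reads, chosen after seeing the data, called 90 and 67 tiles. The 10 named tiles kept direction and call in the 99 alternative values in which they passed the filter. The 5 higher in naive PSCs could not pass it without a naive replicate, nor could chr8:66445501-66446000 without primed replicate 1 or 3, and no tile of the interval was called in the unfiltered fits without naive replicate 1, naive replicate 2 or primed replicate 3. The difference of the *RRS1* bait turned to 0.11 without naive replicate 2 and 0.06 without primed replicate 3, and leaving out each replicate gave -0.27 to 0.11. Centring on the median moved the median difference of all tiles from 0.08 to -0.05. Depth limits the values of both states. Naive replicate 2 held 6.74 M reads and 35.4% of its tiles in the interval were empty. Primed replicates 1 and 2 held 8.85 M and 7.89 M reads, with 47.5% and 34.6% of these tiles empty.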
